A study of Homo sapiens with 18 samples.

Results

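Dimethylated lysine 9 of histone H3 (H3K9me2) was compared between LNCaP cells that express EHMT1-K450RK451R and LNCaP cells that express EHMT1-WT. All peaks of both lists were used, 907 in the K450RK451R line and 784 in the WT line, which makes 1691 of the 22458 peaks in the series. A peak was counted as shared when it had at least 1 bp in common with a peak of the other line, and as K450RK451R-only or WT-only otherwise. LNCaP cells derive from human prostate cancer and respond to androgen. Both lines carried a lentiviral, tetracycline-inducible EHMT1 with a V5 epitope tag, as the wild type (WT) or with a pair of neighbouring lysines replaced by arginine (K450RK451R). They were puromycin-selected stable lines that kept their endogenous EHMT1, and whether either was a single clone was not given. Cells of both groups received 0.5 µg/ml doxycycline for 2 days before chromatin immunoprecipitation and sequencing (ChIP-seq). Each group had 2 replicates in the labels and 1 peak list, so no replicate error and no test between the lines could be given.

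EHMT1 (GLP) and its partner EHMT2 (G9a) form the main methyltransferase that places H3K9me2 in euchromatin, through a SET domain, and their ankyrin repeats bind the same mark. H3K9me2 is linked to gene silencing and is usually spread over broad domains, whereas satellite DNA around centromeres is better known for the trimethylated form. EHMT1 is itself methylated on lysine, and the study replaced such lysines to ask whether this alters EHMT1 at chromatin. The H3K9me2 lists address whether the mark is found at other places when both lysines are replaced.

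Sequences around the summits of line-only peaks are shown because tandem repetition of the sequence was more frequent in the K450RK451R-only class than in the WT-only class, as the values further on show. The first 3 are windows with 100 bases on either side of the summits of K450RK451R-only peaks, chosen from those with the highest −log10 q. They were read from the plus strand of GRCh37, the build called hg19. In the intergenic window on chromosome 4 the capitals mark the pentamers GGAAT and ATTCC, of which it holds 26. In the other windows the capitals mark the first period of the repeat, the shift at which most bases match, which is 87 bases in AHRR and 3 in the intergenic window on chromosome 16.
Intergenic chr4:49637468-49637668: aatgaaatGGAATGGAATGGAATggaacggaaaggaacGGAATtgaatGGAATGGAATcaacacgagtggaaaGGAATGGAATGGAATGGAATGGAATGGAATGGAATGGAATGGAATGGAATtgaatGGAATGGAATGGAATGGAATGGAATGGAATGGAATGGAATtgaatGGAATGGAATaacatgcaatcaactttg
AHRR intron chr5:344549-344749: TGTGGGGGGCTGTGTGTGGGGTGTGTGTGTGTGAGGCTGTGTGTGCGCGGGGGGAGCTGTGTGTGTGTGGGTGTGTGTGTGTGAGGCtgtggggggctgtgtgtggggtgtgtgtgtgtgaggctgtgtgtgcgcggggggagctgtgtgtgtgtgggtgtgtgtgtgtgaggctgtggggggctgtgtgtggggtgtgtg
Intergenic chr16:27150383-27150583: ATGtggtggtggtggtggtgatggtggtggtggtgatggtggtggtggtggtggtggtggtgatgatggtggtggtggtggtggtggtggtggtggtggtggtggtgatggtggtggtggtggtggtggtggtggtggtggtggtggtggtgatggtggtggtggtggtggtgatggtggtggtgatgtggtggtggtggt

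The WT-only windows below were chosen to show some of the sequence kinds among the strongest WT-only peaks. Tandem repeats occurred among these peaks too, as at SIN3B, and are not shown. In the windows on chromosome X and in MYO1D the capitals mark CG dinucleotides. In PCBD2 they mark the 91 bases that lie in stretches of 51 bases also found in the mitochondrial genome.
Intergenic chrX:61717748-61717948: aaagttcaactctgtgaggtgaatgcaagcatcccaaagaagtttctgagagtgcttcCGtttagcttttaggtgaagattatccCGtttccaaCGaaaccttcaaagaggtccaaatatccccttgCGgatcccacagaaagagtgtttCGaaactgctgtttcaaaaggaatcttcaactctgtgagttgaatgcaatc
MYO1D intron chr17:31149517-31149717: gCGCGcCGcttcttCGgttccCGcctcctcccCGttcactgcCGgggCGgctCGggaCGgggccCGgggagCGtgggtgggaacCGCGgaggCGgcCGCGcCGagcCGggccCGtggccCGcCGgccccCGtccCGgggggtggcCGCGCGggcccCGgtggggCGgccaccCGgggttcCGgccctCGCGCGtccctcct
PCBD2 intron chr5:134260163-134260363: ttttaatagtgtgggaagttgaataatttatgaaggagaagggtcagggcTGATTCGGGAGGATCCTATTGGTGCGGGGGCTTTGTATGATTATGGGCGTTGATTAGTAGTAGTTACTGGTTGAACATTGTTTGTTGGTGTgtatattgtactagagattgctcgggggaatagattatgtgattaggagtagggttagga

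The window in MYO1D held 34 CG dinucleotides at a GC content of 84.1%, and it was the most CG-rich of the 6 windows shown.

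Merging the peaks of both lists gave 1083 regions. Of these regions 28.3% (306) held K450RK451R peaks only, 17.5% (189) held WT peaks only and 54.3% (588) held peaks of both lines. In the WT list 595 of 784 peaks were shared (75.9%, 95% Wilson interval 72.8 to 78.8). In the K450RK451R list 601 of 907 peaks were shared (66.3%, 63.1 to 69.3). All intervals here and below cover counting error only, and neighbouring peaks or copies of 1 repeat are not independent. A line-only peak is one that passed the peak caller in 1 list, and the level of the mark at that place in the other line was not analysed here.

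The K450RK451R list was the larger one but rested on fewer reads. Reads estimated from the background of each list were 8.79 M in the K450RK451R line and 17.9 M in the WT line, a ratio of 2.04. Each peak's pileup, the number of extended reads over its summit, and its background were therefore rescaled to the depth of the other list. At the WT depth 304 of 306 K450RK451R-only peaks (99.3%, 97.6 to 99.8) would have reached the lowest −log10 p of the WT list, 5.99. At the K450RK451R depth 117 of 189 WT-only peaks (61.9%, 54.8 to 68.5) would have reached the lowest value of that list, 6.20. Among shared peaks 597 of 601 of the K450RK451R list (99.3%) and 538 of 595 of the WT list (90.4%) would have reached the limit. Carrying peaks to more reads raises −log10 p and carrying them to fewer lowers it, so the direction of the difference between the lines is set by the rescaling itself.

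Line-only peaks were weaker than shared peaks in −log10 q and in pileup, and less so in fold enrichment, the ratio of the pileup to the local background after 1 is added to each. K450RK451R-only peaks had a median fold enrichment of 6.43 (range 1.76 to 13.1), a median −log10 q of 6.93 and a median pileup of 13. WT-only peaks had a median fold enrichment of 5.99 (1.75 to 11.2), a median −log10 q of 8.61 and a median pileup of 20. For shared peaks the median fold enrichment was 7.35 in the K450RK451R list and 7.57 in the WT list, with median −log10 q of 15.8 and 17.4. No line-only peak reached the folds of the strongest shared peaks, such as 44.7 in the K450RK451R line at an intron of SENP5, which encodes a SUMO-specific protease.

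Where both lines had a peak, the fold enrichment was nearly the same. Among 608 overlapping pairs the median log2 ratio of K450RK451R over WT was 0.01, with quartiles of -0.13 and 0.16, and the summits lay a median of 7 bp apart. Across these sites, which share the 2 libraries and are not independent, Spearman's rank correlation was 0.913. The fold was over 1.5 times higher in the K450RK451R line in 16 pairs and over 1.5 times higher in the WT line in 14 pairs. Pairs higher in the K450RK451R line lay in HPCAL1, a neuronal calcium sensor (13.0 against 7.25), in PRDM15, a zinc-finger protein of the PR domain family (13.7 against 7.85), in CHL1, a cell adhesion molecule (9.88 against 5.38), and in SERINC2 (12.9 against 7.88). Pairs higher in the WT line lay in DLG2, a synaptic scaffold protein (9.09 against 15.6), in UNC45B, a myosin chaperone (7.74 against 12.9), in PMF1 (8.53 against 13.8) and in PDE3A, a cyclic nucleotide phosphodiesterase (9.49 against 14.5). The largest ratio of all was at an intergenic pair, chr5:71146767-71146866 in the K450RK451R line, with a fold of 5.70 against 18.3 in the WT line. These genes were chosen after their values were seen, and the numbers of stronger pairs in the lines were close.

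**Figure D1:**
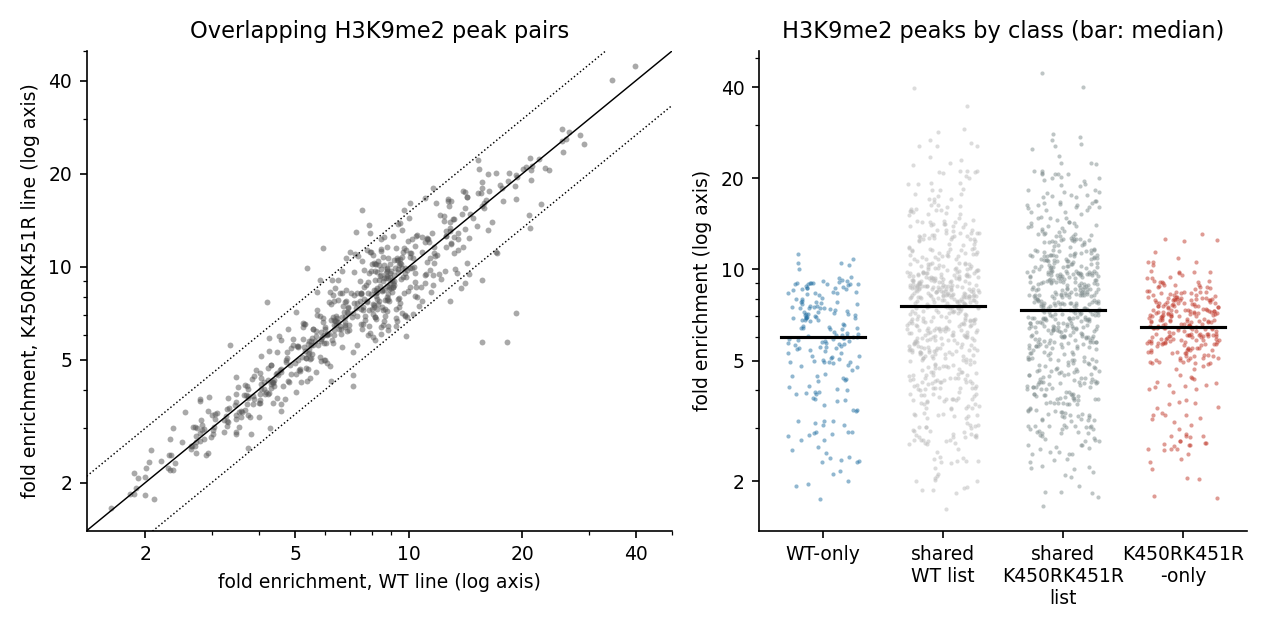
Left, fold enrichment of the 608 overlapping pairs of H3K9me2 peaks in the WT line (horizontal, log axis) and the K450RK451R line (vertical, log axis). Right, fold enrichment of every peak by class on a log axis, with the median as a bar. Pairs lie along the diagonal, with a median log2 ratio of 0.01, and the line-only classes end at 13.1 and 11.2.

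K450RK451R-only peaks often lay far from any WT peak, whereas many WT-only peaks lay close to a K450RK451R peak. The median distance to the nearest H3K9me2 peak of the other line was 80.4 kb for K450RK451R-only peaks and 4.62 kb for WT-only peaks. Beyond 1 Mb of the other line's peaks lay 110 of 306 K450RK451R-only peaks (35.9%) and 30 of 189 WT-only peaks (15.9%). The overlap rule itself decided few calls, since 7 K450RK451R-only and 7 WT-only peaks missed a peak of the other line by 100 bp or less.

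H3K9me2 peaks were next measured against the V5 peaks, which come from ChIP against the tag of EHMT1 in each line. Of the K450RK451R-only peaks 240 of 306 lay within 10 kb of a V5 peak of the K450RK451R line (78.4%, 73.5 to 82.7). Of the WT-only peaks 126 of 189 lay within 10 kb of a V5 peak of the WT line (66.7%, 59.7 to 73.0). The difference was 11.8 percentage points (Newcombe interval 3.73 to 19.9), but the V5 lists differ in size. The K450RK451R V5 list held 14799 peaks, and 8.85% of the genome outside assembly gaps lay within 10 kb of one. The WT V5 list held 652 peaks, and 0.199% of the genome lay within 10 kb of one. With the 652 K450RK451R V5 peaks of highest −log10 q alone, the share of K450RK451R-only peaks within 10 kb was 44.8%, and the difference turned to -21.9 points (-30.3 to -12.9). The order of the line-only classes in distance to their own V5 peaks therefore depended on the size of the V5 list.

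Against the same V5 list, WT-only peaks lay closer to V5 than K450RK451R-only peaks did. Within 10 kb of a K450RK451R V5 peak lay 91.0% of WT-only peaks (172 of 189). The K450RK451R-only share minus the WT-only share was -12.6 points (-18.5 to -6.07). Within 10 kb of a WT V5 peak lay 42.8% of K450RK451R-only peaks (131 of 306), against the 66.7% of WT-only peaks. Shared peaks of the K450RK451R list were close to V5 in nearly every case. Of these, 99.3% lay within 10 kb of a K450RK451R V5 peak and 91.8% within 10 kb of a WT V5 peak. Folds at the strongest shared peaks were similar for every antibody. At SENP5, the shared peak of highest −log10 q, they ran from 35.8 to 45.2 over all lists of H3K9me2, V5 and EHMT1. Whether such signal depends on the antibody was not tested. The median K450RK451R-only peak overlapped a K450RK451R V5 peak and lay 105 kb from the nearest WT V5 peak. The median WT-only peak lay 2.58 kb from the nearest WT V5 peak.

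**Figure D2:**
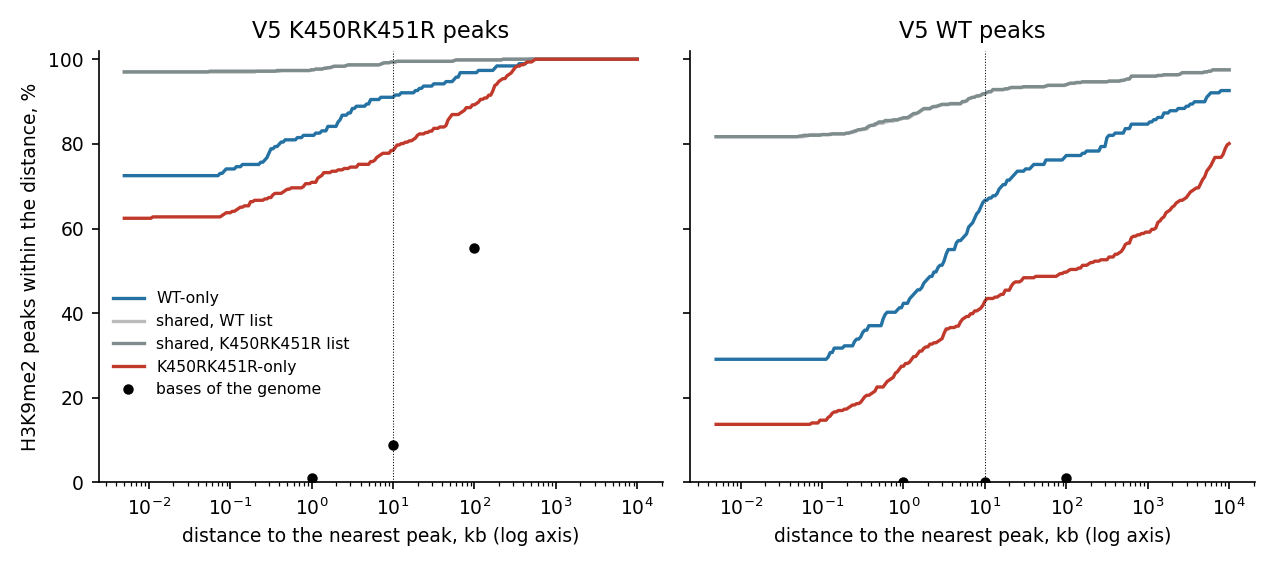
Share of H3K9me2 peaks of each class (vertical, percent) within a given distance of the nearest V5 peak (horizontal, kb, log axis), for the V5 list of the WT line and of the K450RK451R line. Black points give the share of genome bases within 1, 10 and 100 kb, and the dotted line stands at 10 kb. Shared peaks run highest for both V5 lists and K450RK451R-only peaks lowest.

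Direct overlap gave the same order. A K450RK451R V5 peak overlapped 191 of 306 K450RK451R-only peaks (62.4%, 56.9 to 67.7), 137 of 189 WT-only peaks (72.5%) and 97% of shared peaks of the K450RK451R list. For WT V5 peaks the shares were 13.7% (42 peaks), 29.1% (55 peaks) and 81.7%. Peaks of endogenous EHMT1 in parental cells overlapped 122 of 306 K450RK451R-only peaks (39.9%, 34.5 to 45.4) and 122 of 189 WT-only peaks (64.6%), with 96.0% among shared peaks. The K450RK451R-only share minus the WT-only share was -24.7 points for EHMT1 (-33.1 to -15.7), -15.4 for WT V5 (-23.0 to -7.98) and -10.1 for K450RK451R V5 (-18.2 to -1.51). K450RK451R-only peaks with a K450RK451R V5 peak had a median H3K9me2 fold enrichment of 6.83 (191 peaks), and those without one had 6.04 (115 peaks). WT-only peaks with and without a K450RK451R V5 peak had medians of 6.20 (137 peaks) and 5.57 (52 peaks).

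The lines with a single replaced lysine, K450R and K451R, allow the line-only peaks to be followed in further H3K9me2 lists. Their estimated reads were 14.0 M and 27.6 M. Of the K450RK451R-only peaks 167 of 306 were called in at least 1 single-mutant line (54.6%, 49.0 to 60.1) and 77 in both (25.2%). Of the WT-only peaks 132 of 189 were called in at least 1 single-mutant line (69.8%, 63.0 to 75.9) and 64 in both (33.9%). The K450RK451R-only share minus the WT-only share was -15.3 points (-23.5 to -6.46). This interval took in 0 with equal numbers of H3K9me2 peaks, at -7.32 points (-16.7 to 2.21), and over 1 Mb from an assembly gap, at -4.65 points (-22.9 to 13.6). No other list of the series had a peak at 71 K450RK451R-only peaks (23.2%) and at 25 WT-only peaks (13.2%).

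Merged over all 4 lines, 512 regions held H3K9me2 peaks of every line. Regions that lacked a peak in the WT line alone numbered 74, and those that lacked one in the K450RK451R line alone numbered 60. The corresponding numbers were 46 for the K450R line and 11 for the K451R line. Regions with a peak in 1 line alone numbered 139 for K450RK451R, 57 for WT, 55 for K450R and 368 for K451R. The K451R line had the most reads and the K450RK451R line the fewest, and the part of depth in these counts was not tested.

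The 77 K450RK451R-only peaks that were also called in both single-mutant lines had similar folds in the 3 lines, with medians of 7.14 in K450RK451R, 6.98 in K450R and 6.46 in K451R. Of these peaks 20 lay over 1 Mb from an assembly gap, and 11 of the 20 lay in protein-coding genes. That share was near the 48.6% of all K450RK451R-only peaks over 1 Mb from a gap. Of windows laid on a grid over the genome 45.6% lay in such genes. An intergenic peak at chr16:27150398-27150575 had folds of 12.6 in K450RK451R, 6.21 in K450R and 9.02 in K451R. A peak in EGFR, the epidermal growth factor receptor, had folds of 8.05, 5.74 and 7.37 in the same order. A peak in MICAL3, an actin-regulating oxidoreductase, had 9.03, 10.2 and 10.1, so that the K450RK451R line was not the highest there. Other genes with such a peak were KREMEN1, a receptor of the WNT inhibitor dickkopf, with a K450RK451R fold of 7.56, and NRXN3, a neurexin, with 8.02. RYR2, the cardiac calcium release channel, had 6.43 and PRKCA, a protein kinase C, had 6.71. In PRKCA a WT peak with a fold of 6.49 lay 0.324 kb away in the same intron. That WT peak was shared with another K450RK451R peak, with a fold of 9.09. A K450RK451R V5 peak overlapped 18 of the 20 and a WT V5 peak overlapped 6.

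**Figure D3:**
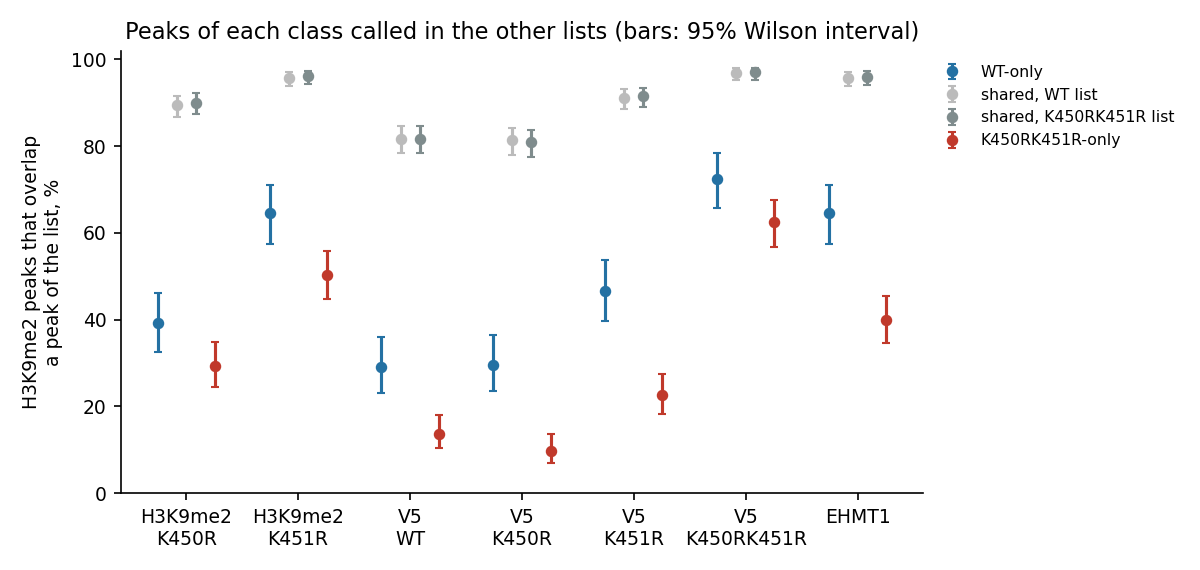
Share of peaks of each class (vertical, percent) that overlap a peak of each further list (horizontal), with 95% Wilson intervals as bars. For EHMT1 the K450RK451R-only share stands at 39.9%, the WT-only share at 64.6% and shared peaks at 96.0%.

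The sequence under the peaks separated the classes further. The window of 100 bases on either side of each summit was called tandem when at least 70% of its bases matched the base 1 period further on, for any period up to 100 bases. This measure was chosen after the data were seen. Tandem windows made up 57.6% of K450RK451R-only peaks (175 of 304, 51.9 to 63.0) and 26.2% of WT-only peaks (48 of 183, 20.4 to 33.0), a difference of 31.3 points (22.5 to 39.3). Shared peaks were at 27.3% in both lists. Among 285857 windows laid on a grid over the genome, 0.377% were tandem. At a stricter limit of 80% the shares were 41.4% and 16.4% of the line-only classes.

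The tandem sequences of the K450RK451R-only class mostly repeated with long periods. Of the 175 tandem windows 26 had a best period of 1 to 6 bases, 37 of 7 to 30 bases and 112 (64.0%) of 31 to 100 bases. A best period can be a multiple of a shorter unit, as in the GGAAT window on chromosome 4, where it was 10 bases. Their median GC content was 51.2%. The difference between the classes was found both near to and far from assembly gaps. These are runs of unknown bases, which lie at centromeres but also at chromosome ends and elsewhere. Over 1 Mb from a gap 70 of 107 K450RK451R-only windows were tandem (65.4%), against 8 of 35 WT-only windows (22.9%), a difference of 42.6 points (23.9 to 56.2). Within 1 Mb of a gap the difference was 26.3 points (15.9 to 35.7), and the intervals overlap. Of the 70 windows far from a gap 0 held a direct pair of GGAAT units, the string of the classical satellites searched here.

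Peaks of other lines that were absent from the WT list were also often tandem. The share was 45.2% in the K450R line (94 of 208) and 38.3% in the K451R line (221 of 577). These shares ran opposite to the estimated reads of the lists, and whether depth played a part was not tested. Among K450RK451R-only peaks with no H3K9me2 peak in any other line 64.5% were tandem (89 of 138), and 15 of the 139 overlapped an EHMT1 peak (10.8%). Among those also called in both single-mutant lines 50.6% were tandem (39 of 77), and 56 of the 77 overlapped an EHMT1 peak (72.7%).

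WT-only peaks differed in other ways. The mean GC content was 46.9% in both line-only classes, and the median was 41.3% for WT-only and 46.3% for K450RK451R-only windows. The upper end differed in the other direction. A GC content of at least 60% was found in 36 of 183 WT-only windows (19.7%, 14.6 to 26) and in 27 of 304 K450RK451R-only windows (8.88%, 6.18 to 12.6). For shared windows of the WT list the share was 5.76%. Over 1 Mb from a gap the mean number of CG dinucleotides per window was 9.57 for WT-only peaks and 2.73 for K450RK451R-only peaks. It was 4.96 for shared peaks of the WT list. A stretch of 51 bases identical to the mitochondrial genome was found in 8 of 183 WT-only windows (4.37%) and in 0 of 304 K450RK451R-only windows, which allows a share of up to 0.987%. Nuclear copies of mitochondrial DNA cannot be told apart from mitochondrial reads at such places. In addition 6 WT-only peaks lay on the mitochondrial genome itself, which carries no histones, with folds of 1.92 to 2.90, and 0 of 306 K450RK451R-only peaks did. The WT line also had 2 shared mitochondrial peaks, with folds of 2.80 and 2.96, against 3.69 and 3.79 in the K450RK451R line.

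**Figure D4:**
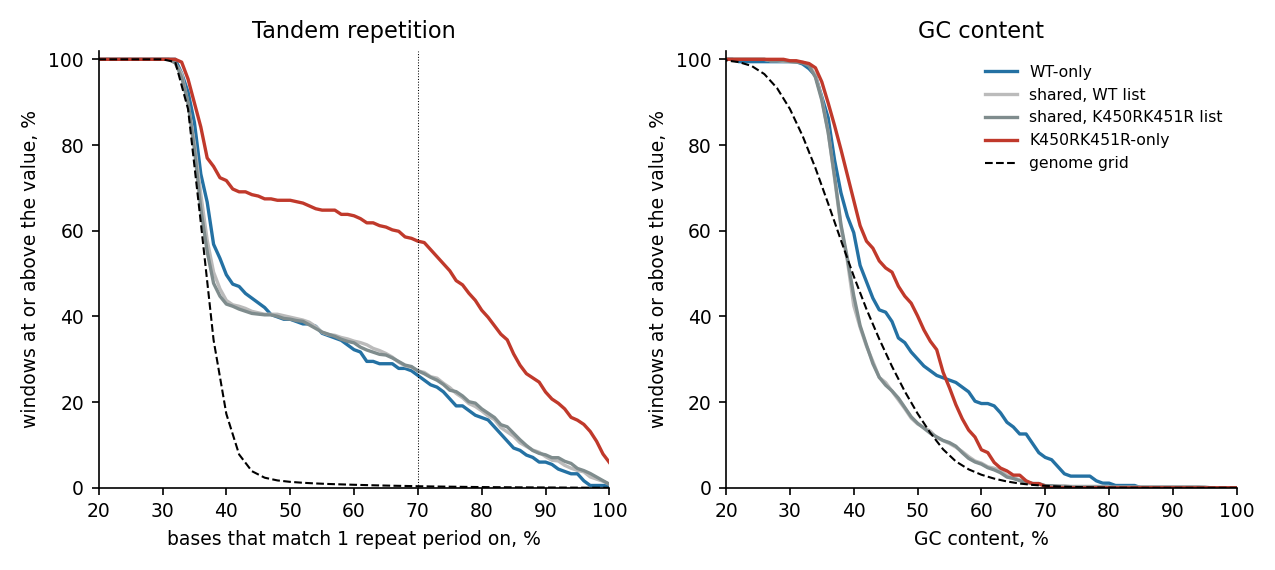
Share of summit windows (vertical, percent) at or above a given value of tandem match (left, horizontal, percent of bases) or GC content (right, horizontal, percent), for each class and for the genome grid as a dashed line. At the dotted line of 70% the K450RK451R-only curve stands at 57.6%, the WT-only curve at 26.2% and the shared curves at 27.3%.

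Peaks of either class were concentrated near assembly gaps. Within 1 Mb of a gap lay 65% of K450RK451R-only peaks, 80.9% of WT-only peaks and 85.0% of shared peaks, against 11% of the grid windows. Some of these gaps are chromosome ends. Within 5 Mb of an end lay 24.8% of K450RK451R-only and 20.8% of WT-only peaks. The share was 10.4% for shared peaks of the K450RK451R list and 7.11% for grid windows. Protein-coding genes held 25.5% of K450RK451R-only peaks (78 of 306, 20.9 to 30.7), 14.8% of WT-only peaks (28 of 189, 10.5 to 20.6) and 8.15% of shared peaks, against 45.6% of the grid windows. The difference between the line-only classes was small over 1 Mb from an assembly gap, with 48.6% and 45.7%, and with equal numbers of H3K9me2 peaks, with 17.8% and 15%. Introns held 76 of the 78 K450RK451R-only peaks in genes. Within 1 kb of an annotated protein-coding transcript start, which can lie inside the gene, were 3 K450RK451R-only and 4 WT-only peaks. The shares were 0.98% (0.334 to 2.84) and 2.12% (0.826 to 5.31). Shared peaks of the K450RK451R list were at 0.832% and grid windows at 2.52%. The 3 were at CDC27, a subunit of the anaphase-promoting complex (fold enrichment 7.14), at SNX16, a sorting nexin (8.70), and at TAF11L13 (5.41). The 4 were at TMCO5A (5.14), FUZ, a ciliary planar polarity protein (5.07), SPATC1L (8.38) and USP17L23, of the USP17 deubiquitinase family (6.83). The CDC27 peak lay in intron 14 and the FUZ peak in a coding exon.

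Of 20163 protein-coding genes, 0.62% (125) held a K450RK451R peak and 0.392% (79) a WT peak. A K450RK451R peak and no WT peak was found in 0.352% (71 genes), a WT peak and no K450RK451R peak in 0.124% (25 genes), and peaks of both lines in 0.268% (54 genes). Of the 71 genes 34 (47.9%) also held a peak of a single-mutant line, 53 (74.6%) held a K450RK451R V5 peak and 15 (21.1%) an EHMT1 peak. Over all genes 23.3% held a K450RK451R V5 peak, 0.263% a WT V5 peak and 2.17% an EHMT1 peak. The share of all genes with a single-mutant peak is not given here, so the single-mutant shares have no background. Of the 25 genes with WT peaks only, 13 (52%) held a peak of a single-mutant line and 11 (44%) an EHMT1 peak. A WT V5 peak was found in 6 of the 25 (24%) and a K450RK451R V5 peak in 20.

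The strongest K450RK451R-only peaks in genes all lay in introns and over 200 kb from any WT peak. The highest fold was 13.1 in GALR1, a receptor of the neuropeptide galanin, where the fold was 6.98 in K450R, 8.76 in K451R and 13.4 in the V5 list of K450RK451R. The nearest WT peak was 2715 kb away. AHRR, the repressor of the aryl hydrocarbon receptor, had a fold of 12.5, with 7.02 and 7.35 in the single-mutant lines and 11.6 in the K450RK451R V5 list. Its window repeated perfectly with a period of 87 bases and held 0 stretches of 51 bases that are unique in the genome, so that reads there cannot be placed with certainty.

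NTN5, of the netrin family, had a fold of 12.4, and its only other peak was in the K450RK451R V5 list, with 7.43. The remaining genes among the 10 highest were MAN2B2, an alpha-mannosidase (11.4), KCNIP4, a potassium channel-interacting protein (10.6), PRKAR1B, a regulatory subunit of protein kinase A (10.4), NT5C2, a cytosolic nucleotidase (9.09), MICAL3 (9.03), COL18A1 with the overlapping folate carrier gene SLC19A1 (8.88) and SNX16 (8.70). Of these 10 peaks 9 had tandem windows, 8 overlapped a K450RK451R V5 peak, 2 a WT V5 peak and 1 an EHMT1 peak. The one with an EHMT1 peak was SNX16, with a fold of 9.57 for EHMT1 and 15.9 for K450RK451R V5.

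The strongest WT-only peaks in genes also all lay in introns. They differed from the K450RK451R-only peaks in the lists that shared them. All 10 overlapped an EHMT1 peak, 9 a K450RK451R V5 peak, 6 a WT V5 peak and 7 a K451R H3K9me2 peak, and 5 had tandem windows. MYO1D, a class I myosin, had the highest fold at 11.2, at chr17:31149555-31149874. Every other list except H3K9me2 of the K450RK451R line had a peak there, with folds of 9.41 in K450R and 13.8 in K451R for H3K9me2, 18.8 for K450RK451R V5 and 14.7 for EHMT1. GCNT1, a glycosyltransferase that branches mucin-type glycans, showed the same set of lists, with 10.5 in WT and 21.4 for K450RK451R V5. At both genes the K450RK451R line thus had a V5 peak with a high fold and no H3K9me2 peak.

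KIF5C, a kinesin heavy chain (10.8), and PCBD2, a pterin dehydratase (8.68), were WT-only peaks whose windows matched the mitochondrial genome. SIN3B, a corepressor scaffold (10.3), had V5 peaks in all 4 lines and an EHMT1 peak but no H3K9me2 peak in another line. The other WT-only peaks of this group were in NXN, a thioredoxin-like oxidoreductase (8.88), ERC1, a presynaptic scaffold protein (8.70), CDC27 (8.63), ARHGEF18, a guanine nucleotide exchange factor (8.54), and MROH5 (8.06). In PCBD2 and CDC27 a K450RK451R peak lay 2.40 and 0.694 kb away, so only 8 of the 10 were over 200 kb from that line's peaks.

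**Figure D5:**
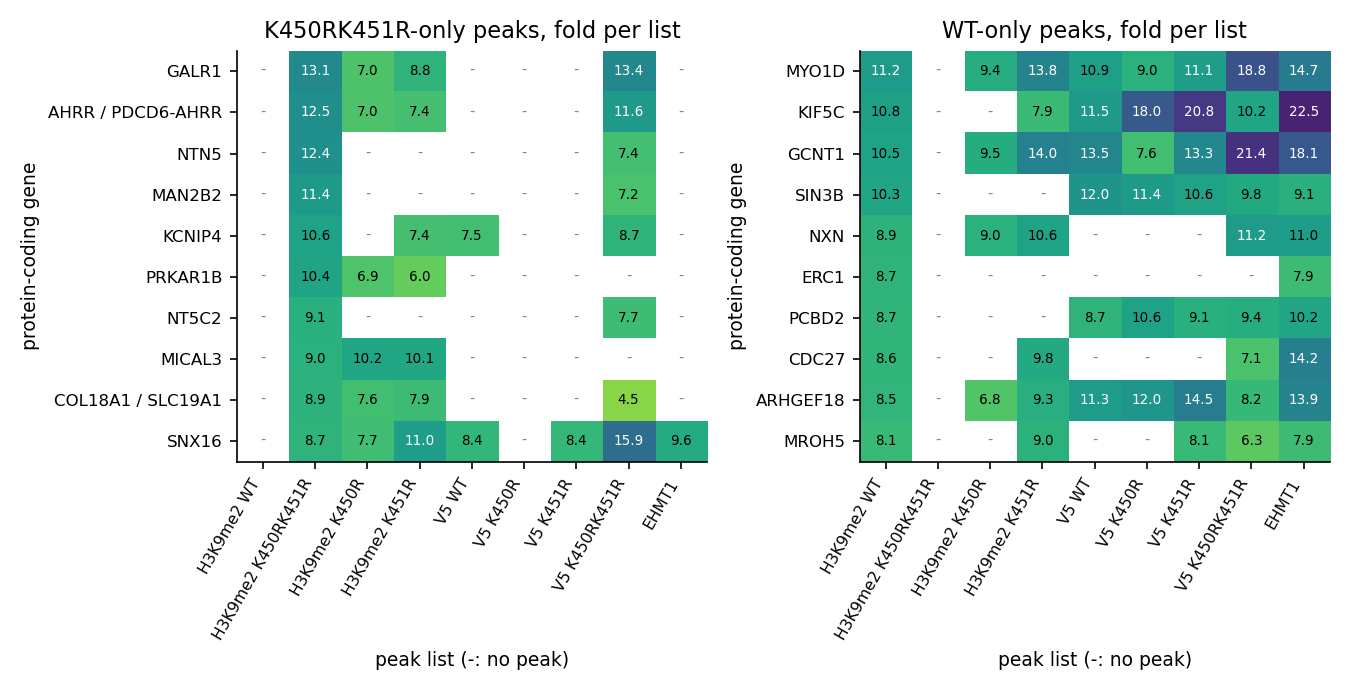
Fold enrichment, as colour and printed value, of the 10 K450RK451R-only peaks (left) and 10 WT-only peaks (right) with the highest folds in protein-coding genes (rows), in each peak list of the series (columns). A dash marks lists with no overlapping peak. The EHMT1 column is filled for 1 of 10 genes on the left and for 10 of 10 on the right.

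A group of 7 genes held at least 2 K450RK451R peaks and no WT peak, and no gene showed the opposite. PTPRN2, a receptor-type phosphatase of secretory vesicles, held 3 peaks with folds of 4.37, 5.66 and 5.84. ACTN2, the alpha-actinin of muscle, held 3 peaks with folds of 5.83, 6.14 and 6.14, all in 1 array with a period of 67 bases and without a unique stretch of 51 bases. The others held 2 peaks each. Among them were PRKCZ, an atypical protein kinase C (8.28 and 7.32), MCCC1, a subunit of methylcrotonoyl-CoA carboxylase (4.89 and 7.73), PPP2R2C, a regulatory subunit of protein phosphatase 2A (5.91 and 8.08), and RPS6KA2, a ribosomal S6 kinase (6.62 and 8.44). All but 1 of these 16 peaks had tandem windows, the exception being the RPS6KA2 peak with a fold of 6.62. A unique stretch of 51 bases was also missing at both MCCC1 peaks, the PTPRN2 peak of 4.37 and the RPS6KA2 peak of 8.44. Reads there cannot be placed with certainty. Such a stretch was missing in 20.1% of K450RK451R-only and 16.4% of WT-only windows. It was missing in 15.9% of shared windows of the K450RK451R list and 2.28% of grid windows. Peaks within 1 array share repeat units, so their number does not count independent sites.

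Gene groups linked to EHMT1 or to prostate cells held 1 gene with a peak or 0, beside 0.62% of all protein-coding genes in the K450RK451R line and 0.392% in the WT line. At such shares, groups of this size would hold few genes with a peak in any case. Among 29 genes of H3K9 methylation and its readers, EHMT1 was the only one with a peak, and both lines had it. This peak lay in intron 2 of EHMT1, a repeat with a best period of 29 bases, with folds of 16.6 in K450RK451R, 12.7 in WT, 12.5 in K450R and 16.3 in K451R. Among 21 androgen receptor and luminal genes FOXA1, a pioneer factor of the androgen receptor, was the only one. Its coding exon held 2 WT-only peaks with folds of 5.56 and 6.94 and 1 K450RK451R-only peak with a fold of 5.68. The latter lay 0.09 kb from the WT-only peak of 5.56 and 0.164 kb from that of 6.94, so that the gene counted for both lines without an overlap. A K450RK451R V5 peak with a fold of 5.97 overlapped the WT-only peak of 5.56, and no single-mutant H3K9me2 or EHMT1 peak overlapped any of the 3.

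Other groups had 0 genes with a peak in either line. They were 25 REST targets, which allows a share of up to 12.0%, 20 germline genes (up to 15%) and families picked by gene symbol. The 515 zinc-finger genes (up to 0.583%) were those with a symbol of ZNF and a number. Zinc-finger genes with other symbols were not counted, and PRDM15 held peaks of both lines. The other families were 415 olfactory receptors (up to 0.723%), 66 protocadherins (up to 4.55%), 94 keratin-associated proteins (up to 3.19%) and 69 histone genes (up to 4.35%). H3K9me2 peaks of this kind are narrow, with median widths of 141 bp in the K450RK451R line and 143 bp in the WT line, so that broad domains of the mark over such gene clusters were not measured by these lists.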

How the data were processed

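ChIP-seq of H3K9me2, V5 and EHMT1 was analysed from 9 deposited peak lists, 1 per group. Per the study's methods and the submitters' processing notes, the authors mapped 51-nt single-end reads to hg19 with BWA 0.7.9a and SAMtools 1.2, after FastQC 0.11.9, and called peaks with MACS2 2.1.0. Pooling of replicates, control and duplicate handling are not given in the sources used here. Per peak the authors deposited a score, a fold enrichment (a ratio), −log10 p, −log10 q and the summit offset.

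Pileup and background were solved from the deposited fold and −log10 p, which gave a solution for 100% of the peaks of both lists and was tested on simulated data. Reads were estimated from the lowest background, an effective genome of 2.7 Gb and 100-base extension. GENCODE v44lift37 genes and the GRCh37 genome were used. Gaps are runs of unknown bases of at least 10 kb. Grid windows stand every 10 kb. Short strings were searched on both strands. The mitochondrial sequence served only for matching stretches of 51 bases. Shares have 95% Wilson intervals and differences have Newcombe intervals. With 1 list per group no test was made.

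Named peaks were the 5 of highest −log10 q per class, the 10 of highest fold in protein-coding genes per line, peaks within 1 kb of a start, genes with at least 2 peaks in 1 line only, and genes of the lists. Some of these items are not reported here. Members and lists were chosen with earlier results of these data known. Python 3.11.15, numpy 2.4.6, pandas 2.3.3, scipy 1.17.1, pysam 0.24.0 and numba 0.67.0 were used.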

Additional observations from a re-analysis of the deposited data

How the results depend on the processing

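No paired analysis was possible because values per replicate were not analysed here, with 1 peak list for each group, and leaving out each replicate was not run for the same reason. Of the WT peaks 75.9% were shared, which became 69.6% with reciprocal overlap of 50%, 82.1% after carrying peaks to the depth of the other list and 71.8% over 1 Mb from a gap. Of the K450RK451R peaks 66.3% were shared, which became 70.8% at −log10 q of at least 5, 62.7% at a fold of at least 5, 73.5% with equal numbers of H3K9me2 peaks, 60.2% with reciprocal overlap and 45.7% far from gaps. K450RK451R-only peaks within 10 kb of their own V5 peaks (78.4%) became 69.9% at the fold limit, 87.5% with equal numbers of H3K9me2 peaks, 70.9% within 1 kb, 89.2% within 100 kb, 44.8% with equal numbers of V5 peaks, 42.8% with the V5 list of the other line and 63.6% far from gaps. The same share for WT-only peaks (66.7%) became 81.2% carried to the other depth, 42.3% within 1 kb, 77.2% within 100 kb, 91.0% with the other V5 list and 34.3% far from gaps. K450RK451R-only peaks in a single-mutant list (54.6%) became 62.4% at the q limit, 47.7% at the fold limit, 48.1% with equal numbers, 29.4% with K450R alone and 43.9% far from gaps. For WT-only peaks (69.8%) the values were 77.5% at the q limit, 55.4% with equal numbers, 61.3% with reciprocal overlap, 84.6% carried, 39.2% with K450R alone and 48.6% far from gaps. The causes were not tested. The difference in the share near own V5 peaks, 11.8 points, changed sign to -2.91 (-10.7 to 6.18) when carried to the other depth, -21.9 with equal numbers of V5 peaks and -48.2 with the V5 list of the other line. No other difference between the line-only classes that was followed over the settings changed sign. The difference in tandem windows was 25 to 42.6 points in all 10 settings. Distance from gaps, the 80% limit and the tandem, GC and mitochondrial measures were chosen after seeing the data.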

Other observations

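Line-only peaks were partly grouped along the chromosomes. When line-only peaks at most 100 kb apart were joined, the 306 K450RK451R-only peaks fell into 205 groups, of which 157 were lone peaks, and the 189 WT-only peaks fell into 113 groups with 73 lone peaks. The K450RK451R-only groups with the most peaks also held shared peaks. The largest, at chrY:58822209-58997336, held 10 K450RK451R-only peaks with folds of 2.53 to 6.43 among 7 shared peaks. One at chr10:42356123-42394560 held 7 K450RK451R-only peaks with folds of 2.04 to 4.35 among 18 shared peaks of that line. Another at chr2:132977557-133045669 held 6, with folds of 4.69 to 8.46, among 10 shared peaks. The largest WT-only group held 10 peaks at chrX:61687351-61846058, beside the centromere. Its span also held 11 peaks of the K450RK451R line.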
